A study of Camellia sinensis with 6 samples.

Results

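Chlorophyll a/b binding proteins are the light-harvesting antenna of the chloroplast: nuclear genes encode them, and the proteins hold chlorophyll in the thylakoid membrane and pass the absorbed energy to photosystem I or photosystem II. The genes described here are those of the tea plant whose deposited annotation carries the chlorophyll a/b binding domain (PF00504) or a chlorophyll a/b binding protein name. The rule took 26 of the 40118 deposited gene models. Going by the protein name, 8 were photosystem I antenna proteins, 16 were photosystem II antenna proteins, 1 was an early light-induced protein, and the last was PsbS, the 22 kDa protein of photosystem II. PsbS has the domain but no antenna name and is kept apart. RNA was sequenced from young shoots of 'Zhonghuang 2', a tea (Camellia sinensis) cultivar in which new leaves turn yellow in the cold. All plants first spent 1 month at 22 °C, with days and nights of 12 h each and fluorescent light of 200 µmol per square metre and second. The chamber of the low-temperature shoots (LT, yellowed, 3 libraries) was then set to 18 °C in the light and 14 °C in the dark, and that of the high-temperature shoots (HT, green, the control, 3 libraries) to 26 °C in the light and 22 °C in the dark. Both kinds were collected once the LT leaves had yellowed.

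The antenna of photosystem I sits on the reaction center as a belt of Lhca proteins, each present as a few types. Photosystem II has an abundant mobile antenna, LHCII, built from trimers of type I, II and III proteins, and the minor single proteins CP24, CP26 and CP29, which link the trimers to the core. No member was annotated as LHCII type II, or as LHCI type I of the photosystem I antenna. The sums below therefore follow the deposited names and may not cover each antenna in full. Early light-induced proteins and PsbS belong to the same fold, but they are known for protection from excess light and not for harvesting it. In green leaves the LHCII genes are among the most strongly expressed nuclear genes, and free antenna proteins are unstable without chlorophyll.

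Every LT library came from one chamber and every HT library from the other, so an effect of temperature and one of the chamber cannot be told apart. Whether replicate libraries were made from different plants is not given in the labels, and the p-values therefore measure the spread between libraries, which may be technical. Library totals ran from 15202546 to 15642015 counts, and counting error alone is small at the levels of most members. HT replicate 2 stood apart: averaged over gene models, the chi-square statistic was 26.5 for its counts against HT replicate 1 and 22.95 against HT replicate 3, while HT replicates 1 and 3 gave 5.32 between themselves. It was the lowest HT library for 24 of the 25 tested members and for 36.1% of all tested gene models. Results are therefore given with and without it. HT replicate 2 was set apart on these same data, so smaller p-values without it are no separate support. As markers of the labelled tissue, Rubisco small chains, Rubisco activases and plastid carbonic anhydrases summed to 10087 to 10869.9 CPM (counts scaled to a common library size by TMM) in LT and 10506 to 10888 CPM in HT. The near-equal sums held unequal members: of 15 tested leaf markers 5 fell and 3 rose, with log2 changes from -1.57 to 1.23. Per kilobase the leaf markers were lower in LT without overlap, at 15256 to 16060.0 FPKM in LT and 17005 to 17667 FPKM in HT. Of all 21, 3 carbonic anhydrase models were at 0 in every library. Cyclin A, cyclin B and cyclin-dependent kinase B models, markers of dividing cells, summed to 632 to 679 CPM in LT and 742 to 767 CPM in HT, with 1 of 24 at 0. The 14 vascular markers summed to 225 to 278 CPM in LT and 194 to 253 CPM in HT, and the 38 epidermal markers to 3518 to 4128 CPM in LT and 3012 to 3526 CPM in HT, none at 0 throughout. These sums held unequal members too. Of 17 tested dividing-cell markers 2 fell and 1 rose (log2 changes from -2.18 to 0.64, median -0.10). Of 31 tested epidermal markers 2 fell and 4 rose (-0.91 to 1.45). Of 12 tested vascular markers 0 fell and 0 rose by the same test (-0.94 to 0.63). Over all gene models 9.65% fell and 9.27% rose. The lower leaf-marker FPKM, the lower dividing-cell sum and the partly higher epidermal sum in LT moved with the temperature groups, and their part in the antenna results was not tested. In whole shoots, fewer cells of a type and less RNA per cell cannot be told apart.

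Antenna genes were lower in the yellowed shoots. Of the 25 members that passed the count filter, 13 fell and 2 rose in LT by edgeR's quasi-likelihood test, at an adjusted p under 0.05 over all gene models, and the other 10 were not called. The median log2 change of the tested members was -0.55, beside -0.01 for all 26767 gene models tested. Over all of those, 18.9% were called in either direction, 9.65% as lower and 9.27% as higher. Without HT replicate 2, 19 members fell and 3 rose, where 9.98% of all gene models were called lower and 10.6% higher, and the members' median was -0.68. The LT and HT libraries did not overlap in 18 of the 25 tested members, against 36.5% of all tested gene models. The member that did not pass the filter, a CAB-13 model (Cha08g015620), had 0 counts in every LT library and 1, 1 and 0 counts in HT replicates 1, 2 and 3, under the floor of 3 counts.

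**Figure D1:**
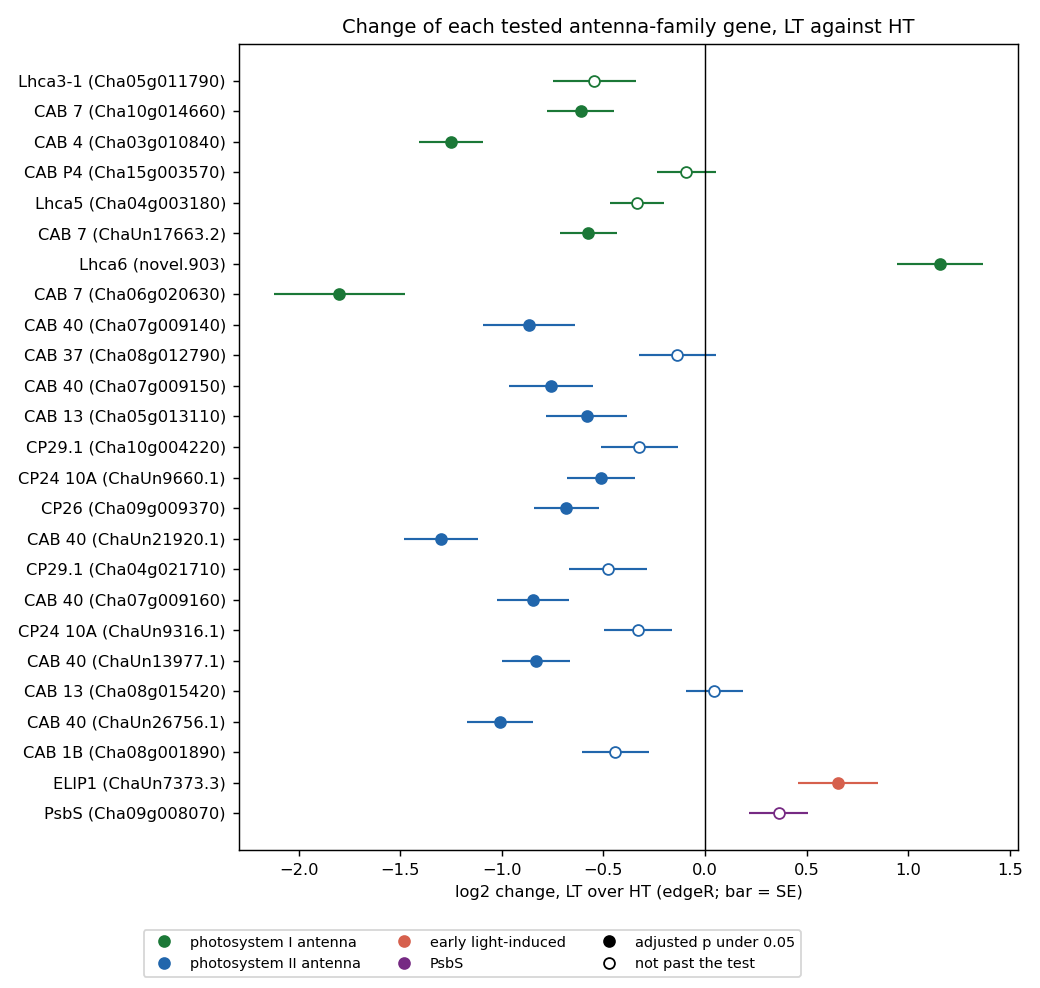
Log2 change of each of the 25 tested members, LT over HT, with its standard error. Filled points passed the test: 4 photosystem I and 9 photosystem II antenna genes lie to the left of 0, and 1 photosystem I antenna gene and the early light-induced protein gene lie to the right.

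All members together made up 2.65%, 2.65% and 2.67% of all counts in LT replicates 1, 2 and 3, against 4.44%, 3.38% and 4.47% in HT replicates 1, 2 and 3. The 3 LT libraries were nearly equal and lay below every HT library. The photosystem II antenna summed to 22131, 21169 and 21818 CPM in LT and to 38039.9, 25191 and 37828 CPM in HT, a ratio of the LT to the HT mean of 0.644, or 0.572 without HT replicate 2. The photosystem I antenna summed to 4180.4, 4237 and 4208 CPM in LT and to 7001, 4955 and 7044 CPM in HT, a ratio of 0.664, or 0.599 without HT replicate 2. The SD among LT libraries (491 CPM for photosystem II and 28.2 CPM for photosystem I) was far below that among HT libraries (7358 and 1194 CPM), where HT replicate 2 was the low one. The balance of the antennas was nearly the same in both groups. The summed photosystem II antenna was 4.71 ± 0.133 times the photosystem I antenna in LT and 4.75 ± 0.162 times in HT (SD, n = 3 each). These are ratios of deposited FPKM, a level per kilobase of gene model. With all libraries the difference was smaller than the spread between libraries. Without HT replicate 2 the HT mean was 4.84, and that no longer held clearly. The groups still overlapped, with LT replicate 1 at 4.82 and HT replicate 3 at 4.81.

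**Figure D2:**
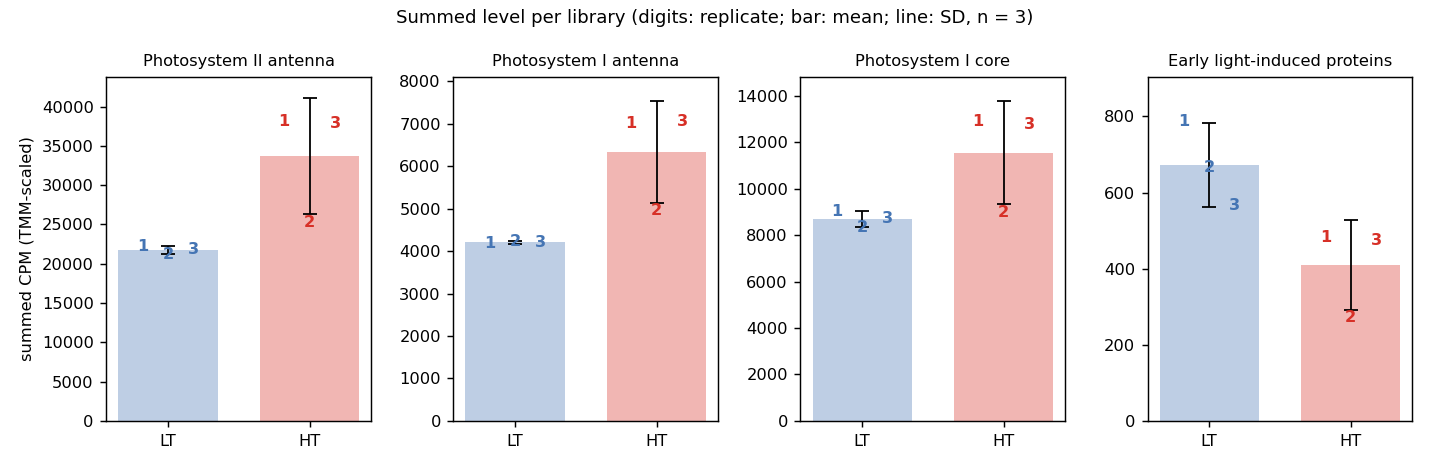
Summed CPM per library for the photosystem II antenna, the photosystem I antenna, the nuclear photosystem I core and 3 early light-induced protein genes, with group means as bars and SD as lines. HT replicate 2 lies near the LT libraries in the antenna and core panels, and all 3 LT libraries lie above every HT library in the early light-induced panel.

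Among the photosystem I antenna genes 4 of 8 fell, 1 rose and 3 were not called. Over all gene models 9.65% were called lower and 9.27% higher, or 9.98% and 10.6% without HT replicate 2. Without HT replicate 2, 6 fell and 1 rose, and without LT replicate 3 only 2 fell. Lhca3, named photosystem I chlorophyll a/b-binding protein 3-1 (Cha05g011790, chromosome-scale sequence 5, 136627966 to 136630053, plus strand), had the highest level of the 8, averaging 2683 ± 64.9 FPKM in LT and 3898 ± 1070.2 FPKM in HT (SD, n = 3). It had 2304, 2224 and 2192 CPM in LT, against 3734, 2261 and 3816 CPM in HT. HT replicate 2 fell within the LT range, and the log2 change of -0.55 ± 0.20 (SE) did not pass the test (adjusted p = 0.0711). Without that library it did (adjusted p = 2.89e-06). It was also called with library totals, without the count filter and with DESeq2.

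LHCI type II, the Lhca2 class, had 3 models, all named chlorophyll a-b binding protein 7 (CAB-7), and all 3 fell. The strongest (Cha10g014660, sequence 10, 139575178 to 139578832, plus strand) had 939, 1015 and 1030.4 CPM in LT and 1628, 1329 and 1602 CPM in HT, with no overlap (log2 change -0.61 ± 0.16, adjusted p = 0.0147). Its call was lost without LT replicate 1, 2 or 3 and without HT replicate 1 or 3, with an adjusted p from 0.0547 to 0.0794. The second CAB-7 model (ChaUn17663.2) had 28.6, 30.3 and 28.5 CPM in LT and 47.9, 37.8 and 44.5 CPM in HT (log2 change -0.57 ± 0.14, adjusted p = 0.00822, and 0.0526 without LT replicate 3). The third, Cha06g020630 (sequence 6, 162538535 to 162540409, minus strand), had the steepest fall of all members but was near the lower end of detection. Its counts were 36, 19 and 28 in LT and 114, 85 and 93 in HT (log2 change -1.80 ± 0.32, adjusted p = 0.000932). The highest of the 3 models exceeded the lowest by far in both groups: they averaged 1205, 38.5 and 2.18 FPKM in LT and 1829, 57.1 and 7.56 FPKM in HT.

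CAB-4 and CAB-P4, both annotated as LHCI type III, as Lhca3 and Lhca5 also are, behaved unlike each other. CAB-4 (Cha03g010840, sequence 3, 118540963 to 118542694, minus strand) had 369, 370.0 and 378 CPM in LT and 957, 753 and 945 CPM in HT. The groups were well apart, the fall was 2.38-fold (log2 change -1.25 ± 0.16, adjusted p = 4.5e-05), and all 16 refits of this gene called it. CAB-P4 (Cha15g003570, sequence 15, 27414657 to 27417273, plus strand) had 479.8, 528 and 513 CPM in LT and 551, 509.7 and 561 CPM in HT. These ranges overlapped and the log2 change was -0.09 ± 0.15 (adjusted p = 0.712), with no call in any of 16 refits. Per kilobase, CAB-4 stood at 0.776, 0.706 and 0.742 of CAB-P4 in LT and at 1.75, 1.49 and 1.70 times CAB-P4 in HT. The order of the pair was thus opposite in the groups, in every library, HT replicate 2 included. That difference in ratio was chosen after its values were seen and has no test.

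Both of the rare photosystem I antenna proteins, Lhca5 and Lhca6, which in Arabidopsis link photosystem I to the NADH dehydrogenase-like complex, were low in level. Lhca5 (Cha04g003180) had 46.0, 52.2 and 50.4 CPM in LT and 69.5, 55.0 and 62.7 CPM in HT. The groups did not overlap, but the log2 change of -0.33 ± 0.13 did not pass the test (adjusted p = 0.09, and 0.0148 without HT replicate 2). Lhca6 was found only at a locus outside the annotated gene models (sequence 3, 2779406 to 2780478, minus strand, 410 bases of counted length). It rose, with 168, 254 and 209 counts in LT and 83, 95 and 107 counts in HT, or 11.2, 16.2 and 13.5 CPM against 5.64, 5.70 and 7.03 CPM. Every LT library was above every HT library (log2 change 1.16 ± 0.21, adjusted p = 0.00106, called in all 16 refits). By this test no other photosystem I or II antenna member was called higher in LT.

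**Figure D3:**
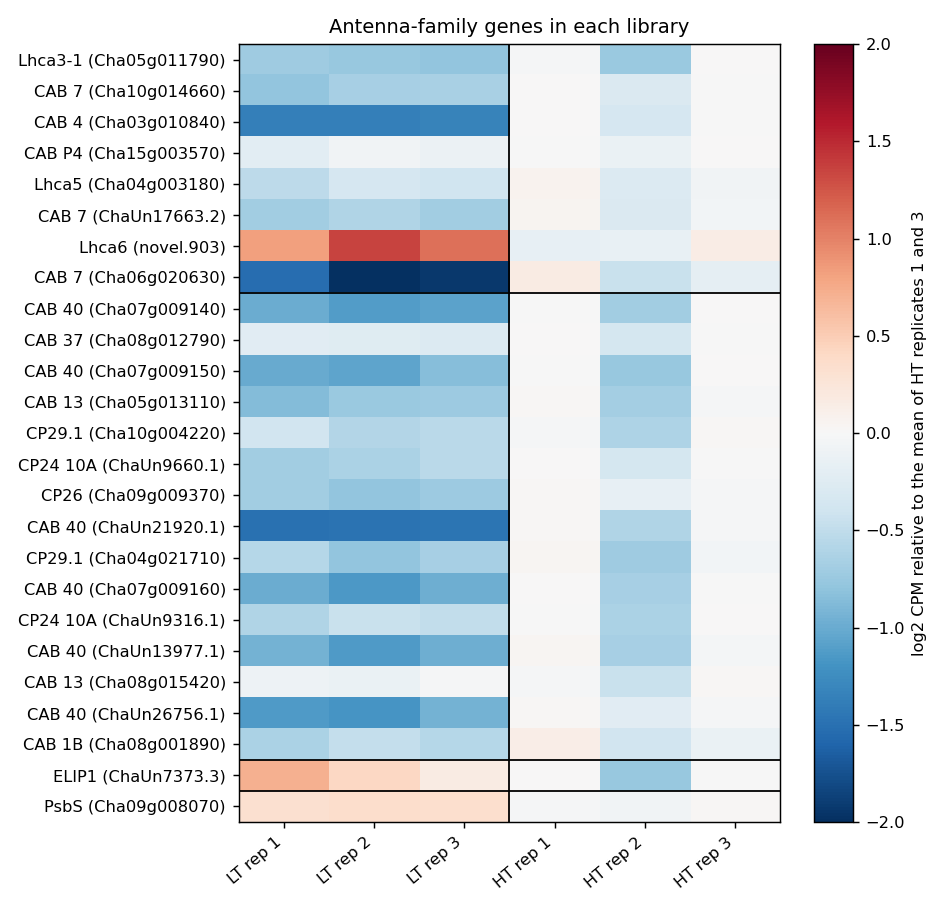
Log2 CPM of each tested member in each library, relative to the mean of HT replicates 1 and 3, with the photosystem I antenna, photosystem II antenna, early light-induced protein and PsbS separated by lines. Blue (lower) fills most of the LT columns, HT replicate 2 is also blue in most rows, and the rows of Lhca6, ELIP1 and PsbS are red (higher) in LT.

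Among the photosystem II antenna genes 9 of the 15 tested fell, 0 rose and 6 were not called. The shares over all gene models were 9.65% lower and 9.27% higher, or 9.98% and 10.6% without HT replicate 2. At an unadjusted p under 0.05, 0 were higher, and neither DESeq2 nor edgeR without HT replicate 2 called any higher. The number that fell was 13 without HT replicate 2, but 4 without LT replicate 2 or LT replicate 3 and 5 without HT replicate 1 or HT replicate 3. LHCII type I, the most abundant class, had 8 models, of which 6 fell. These 6 were exactly the models named chlorophyll a-b binding protein 40. The most abundant transcript of the whole antenna came from one of them (Cha07g009140, sequence 7, 85343434 to 85349083, minus strand). It held 0.778%, 0.743% and 0.756% of all counts in LT and 1.55%, 1.09% and 1.58% in HT. It had 8067, 7427 and 7648 CPM in LT, against 16047, 9994 and 16149 CPM in HT, a log2 change of -0.87 ± 0.23 (adjusted p = 0.012). The groups did not overlap, although HT replicate 2 lay nearer to the LT libraries than to the other HT libraries. The call was lost without LT replicate 2, LT replicate 3, HT replicate 1 or HT replicate 3 (adjusted p of 0.0878, 0.085, 0.0535 and 0.0739), while without HT replicate 2 the adjusted p was 1.03e-08. Limma without a filter also lost this call (0.06).

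That gene is the first of 3 CAB-40 models close together on sequence 7. The second (Cha07g009150, 85381202 to 85381983, plus strand) begins 32119 bases after it with no gene model between, and the third (Cha07g009160, 85642934 to 85661636, plus strand) 260951 bases further on with 2 gene models between. The second had 1689, 1637 and 1870.3 CPM in LT and 3358, 2008 and 3419.7 CPM in HT (log2 change -0.76 ± 0.21, adjusted p = 0.0154). Its call was lost when any library other than HT replicate 2 was left out, with an adjusted p from 0.063 to 0.102. All 3 limma fits lost the call as well (0.0621 to 0.097). The third had 336, 300.2 and 340.0 CPM in LT and 673, 421 and 659 CPM in HT (log2 change -0.85 ± 0.18, adjusted p = 0.00302). The 3 neighbours thus had nearly the same change, at levels per kilobase of 7220.0, 2195 and 288 FPKM in LT and 13095, 3692 and 515 FPKM in HT.

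The other 3 CAB-40 models lie on unplaced sequences. ChaUn21920.1 had 555, 559.9 and 572 CPM in LT and 1597, 1028 and 1535 CPM in HT, the steepest fall of the photosystem II antenna at 2.47-fold (log2 change -1.30 ± 0.18, adjusted p = 0.000122). It was called in all 16 refits, as were ChaUn26756.1 (log2 change -1.01 ± 0.16, adjusted p = 0.000418) and ChaUn13977.1 (-0.83 ± 0.17, adjusted p = 0.0024). ChaUn13977.1 had 174, 153 and 171 CPM in LT and 347, 214 and 327 CPM in HT. ChaUn26756.1 had only 11.4, 11.1 and 13.1 CPM in LT and 25.6, 21.5 and 24.7 CPM in HT. LT lay below HT without overlap in all 6 CAB-40 models, as it did in 18.4% of all tested gene models. Since these models share a protein name and may be near-identical copies, reads could be split among them, and they are not independent observations.

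CAB-37 (Cha08g012790, sequence 8, 120290216 to 120291837, plus strand), of the same LHCII type I, was the second most abundant antenna transcript per kilobase and did not pass the test. It had 4696, 4634 and 4517 CPM in LT and 5519, 4284 and 5423 CPM in HT. The LT values fell between HT replicate 2 and the other HT libraries, and the log2 change was -0.14 ± 0.19 (adjusted p = 0.666, and 0.0683 without HT replicate 2). The 6 CAB-40 models together stood at 1.87, 1.77 and 1.92 times CAB-37 in LT and at 3.25, 2.60 and 3.32 times in HT, again per kilobase and without overlap. CAB-37 therefore made up 19.4% ± 0.48 of the summed antenna FPKM in LT and 14.2% ± 1.24 in HT, while Cha07g009140 made up 24.5% ± 0.708 in LT and 29.1% ± 1.41 in HT (SD, n = 3 each). As with CAB-4 and CAB-P4, this contrast was chosen after the values were seen and has no test. The remaining type I model, CAB-1B (Cha08g001890), was at 16.5 to 18.5 CPM in LT and 19.7 to 28.1 CPM in HT and did not pass the test (adjusted p = 0.0695).

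**Figure D4:**
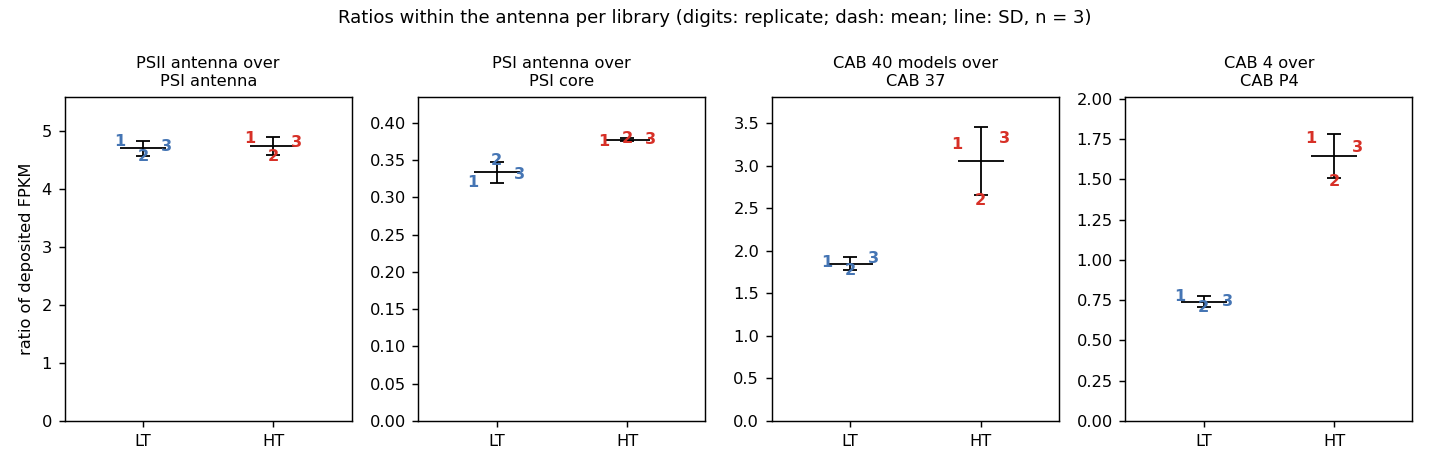
Ratios of deposited FPKM in each library: photosystem II over photosystem I antenna, photosystem I antenna over nuclear photosystem I core, the 6 CAB-40 models over CAB-37, and CAB-4 over CAB-P4, with mean and SD (n = 3). The groups overlap in the first panel, with means of 4.71 in LT and 4.75 in HT, and are apart in the other 3, where LT is lower.

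LHCII type III, the third kind of trimer subunit, had 2 tested models, both named chlorophyll a-b binding protein 13. The abundant one (Cha05g013110, sequence 5, 144851879 to 144853706, minus strand) had 1812, 1967 and 2004 CPM in LT and 3340.4, 2051 and 3265 CPM in HT. HT replicate 2 was just above the highest LT library, and the gene was barely called (log2 change -0.58 ± 0.20, adjusted p = 0.0489). The call was lost in 11 of 16 refits. Among them were those with DESeq2's size factors (adjusted p = 0.0597), upper quartile scaling (0.0518) and each library other than HT replicate 2 left out (0.152 to 0.199). Without HT replicate 2 the call was kept (2.53e-06), with an SE of 0.097. The weaker one (Cha08g015420, sequence 8) had 80.5, 79.4 and 85.1 CPM in LT and 85.8, 63.7 and 87.9 CPM in HT (log2 change 0.05 ± 0.14, adjusted p = 0.855), and its sign turned without HT replicate 2 (-0.087). Per kilobase the abundant model stood at 22.3, 24.6 and 23.4 times the weaker one in LT and at 38.7, 32.0 and 36.9 times in HT.

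Of the minor antenna proteins, which connect LHCII to the core, 2 of 5 models fell and 3 were not called. Of all gene models 9.65% were called lower. CP26 (Cha09g009370, sequence 9, 97558508 to 97560340, plus strand) had 1012, 945 and 981 CPM in LT and 1664, 1455 and 1600.0 CPM in HT. Here HT replicate 2 stayed with its own group, and the gene was called (log2 change -0.68 ± 0.16, adjusted p = 0.00649), though not without LT replicate 2 (0.06) or LT replicate 3 (0.055). CP24 had 2 models. ChaUn9660.1 had 1002, 1049.5 and 1113 CPM in LT and 1633, 1268 and 1613 CPM in HT (log2 change -0.51 ± 0.17, adjusted p = 0.0405), a call lost when any library other than HT replicate 2 was left out (0.117 to 0.161). All 3 limma fits lost that call too (0.0728 to 0.0908). ChaUn9316.1 had 260.1 to 289 CPM in LT and 254 to 396 CPM in HT (adjusted p = 0.184). The 2 CP29.1 models did not pass the test: Cha10g004220 had 1585, 1382 and 1428 CPM in LT and 2049, 1349.8 and 2103 CPM in HT (adjusted p = 0.255), and Cha04g021710 had 834, 717 and 781 CPM in LT and 1284, 759.5 and 1203 CPM in HT (adjusted p = 0.0894). Without HT replicate 2 all 5 minor antenna models were called lower, as were 9.98% of all gene models. The summed LHCII stood at 3.31, 3.43 and 3.36 times the summed minor antenna in LT and at 3.87, 3.50 and 3.91 times in HT (FPKM), so every LT library was below every HT library, by little in the case of HT replicate 2.

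HT replicate 2 did not lower all members alike. Its CPM was 0.592 to 0.949 of the mean of HT replicates 1 and 3 over the 25 tested members. It lay at or below the highest LT library in 10 members. Lhca6, ELIP1 and PsbS, which stood higher in LT, were among them, as were Lhca3, CAB-P4 and 5 photosystem II antenna genes, including CAB-37 and both CP29.1 models. It kept 0.892 of that mean in CP26 and 0.792 in CAB-4, where the LT mean was 0.60 and 0.392 of it. In Lhca3 HT replicate 2 was at 0.599 and the LT mean at 0.593. The photosystem I antenna over the nuclear photosystem I core gave 0.379 in HT replicate 2, close to 0.375 and 0.378 in HT replicates 1 and 3 and above the 0.32, 0.349 and 0.331 of the LT libraries. What sets HT replicate 2 apart was not tested.

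**Figure D5:**
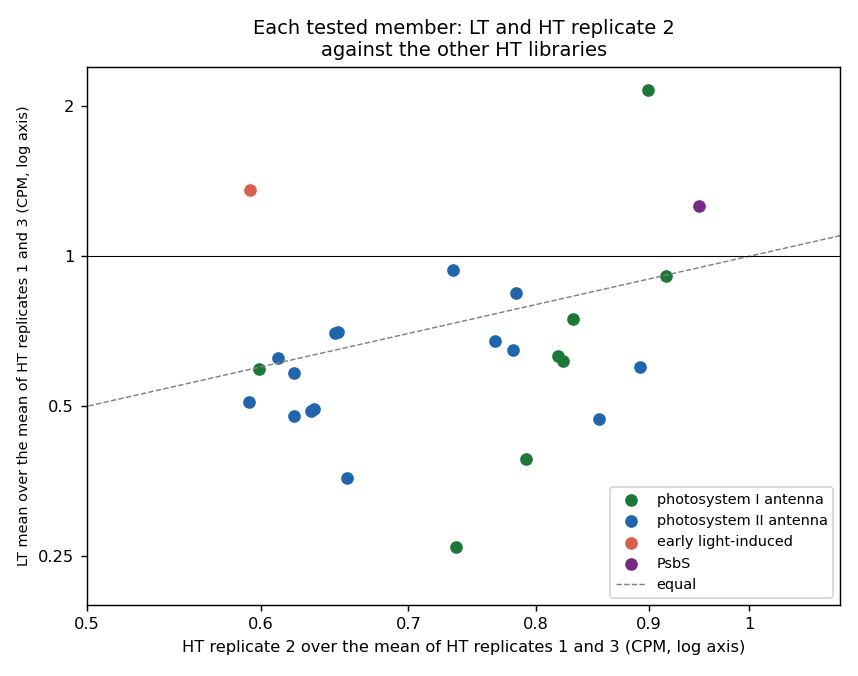
For each tested member, the CPM of HT replicate 2 (horizontal, log axis) and the LT mean (vertical, log axis), both divided by the mean of HT replicates 1 and 3. Points below the dashed line are lower in LT than in HT replicate 2, as for CAB-4 (0.392 and 0.792), while Lhca3 lies on the line (0.593 and 0.599).

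The protective members stood above HT in every LT library, and the early light-induced protein passed the test. ELIP1 (ChaUn7373.3, on an unplaced sequence) had 434, 353 and 299 CPM in LT and 269, 158 and 264 CPM in HT. LT lay above HT without overlap, 1.57-fold (log2 change 0.65 ± 0.20, adjusted p = 0.0278). The call was lost without LT replicate 1 (0.13), without LT replicate 2 (0.0831) and in all 3 limma fits (0.0655 to 0.116). It was kept without HT replicate 2 (0.0132). This model also carries an aldo/keto reductase domain and spans 378 to 22263 of its sequence, so its reads may come from a pair of joined genes. Another 2 models named early light-induced protein do not have the domain in their annotation and fell outside the rule; they were looked up after the values were seen. Cha05g002910 rose to 57.3, 49.9 and 47.2 CPM in LT, against 25.2, 19.7 and 33.8 CPM in HT (log2 change 0.97 ± 0.17, adjusted p = 0.000924). Cha05g002920 rose to 294, 263 and 219 CPM in LT, against 188, 94.8 and 177 CPM in HT (log2 change 0.76 ± 0.22, adjusted p = 0.028, but 0.099 without LT replicate 1 and 0.086 without LT replicate 2). Its call was also lost in all 3 limma fits (0.0525 to 0.1). Together the 3 genes summed to 785, 667 and 565 CPM in LT and 482, 272 and 474 CPM in HT. PsbS (Cha09g008070, sequence 9, 88500922 to 88503902, plus strand), the sensor of lumen acidity in energy dissipation, had 696, 713 and 702 CPM in LT and 549, 528 and 564 CPM in HT. The groups were clearly apart, yet the log2 change of 0.36 ± 0.15 did not pass the test (adjusted p = 0.0939, and 0.017 without HT replicate 2). PsbS stood at 3.46%, 3.69% and 3.52% of the summed photosystem II antenna FPKM in LT and at 1.61%, 2.33% and 1.67% in HT.

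Light-harvesting-like, OHP and stress-enhanced proteins, which were also outside the rule and looked up later, had 1 call. LIL3 (light-harvesting complex-like protein 3, ChaUn5751.5), known for holding enzymes of chlorophyll synthesis at the membrane, rose to 318, 346 and 353 CPM in LT, against 261, 193 and 255 CPM in HT (adjusted p = 0.0209, but 0.0928 without LT replicate 2 and 0.103 without LT replicate 3). Limma without a filter also lost the LIL3 call (0.0677). None of the OHP1, OHP2 and stress-enhanced protein models (5 tested) passed the test.

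The nuclear subunits of the photosystem I core, which the Lhca belt binds, had 3 of 10 tested models that fell and 0 that rose, with a median log2 change of -0.50. At an unadjusted p under 0.05, 6 were lower and 0 higher. DESeq2 called 6 lower, and without HT replicate 2 edgeR called 8 lower, with 0 higher in both. Without LT replicate 2, LT replicate 3, HT replicate 1 or HT replicate 3, 1 was called lower. PsaE (subunit IV B, Cha01g001220), at the stromal side, had 352, 416 and 395 CPM in LT and 639.9, 693 and 627 CPM in HT (log2 change -0.75 ± 0.15, adjusted p = 0.00204). PsaO (Cha13g005990), next to the docking site of LHCII, had 647, 602 and 598 CPM in LT and 996, 771 and 1009 CPM in HT (log2 change -0.59 ± 0.16, adjusted p = 0.0165). Its call was lost without LT replicate 2 (0.0991), LT replicate 3 (0.103), HT replicate 1 (0.0606) or HT replicate 3 (0.0916), and in limma without a filter (0.0606). PsaN (ChaUn12995.3), named after its values were seen, averaged 683 CPM in LT and 999 CPM in HT (adjusted p = 0.0195), a call lost when any library other than HT replicate 2 was left out (0.0574 to 0.0929). Matched by name, the photosystem II list held the oxygen-evolving complex, small nuclear subunits, and PsbP-like and PsbP domain-containing proteins. The names do not show whether the last are subunits of the complex. Of the 18 tested models of this list 4 fell and 3 rose, with a median of -0.14. All 3 that rose were PsbP-like or PsbP domain-containing proteins. Over all gene models 9.65% were called lower and 9.27% higher. Without HT replicate 2, 7 fell and 3 rose. Without LT replicate 2, LT replicate 3 or HT replicate 3, 2 fell. PsbR, the 10 kDa polypeptide (Cha08g018420), was at 57.9 to 82.1 CPM in LT and 215 to 232 CPM in HT, and PsbP domain-containing protein 1 (Cha02g010740) rose to 81.9 to 88.5 CPM in LT, against 34.3 to 49.4 CPM in HT (adjusted p = 0.000105). The others, named after their values were seen, were the 5 kDa protein (log2 change -1.07), oxygen-evolving enhancer protein 1 (-0.61) and PsbW (-0.56) among those that fell, and PsbP-like protein 1 (0.73) and PsbP domain-containing protein 5 (0.64) among those that rose. The call of oxygen-evolving enhancer protein 1 was lost without LT replicate 2, LT replicate 3 or HT replicate 3 (adjusted p of 0.0537, 0.0701 and 0.0592). That of PsbW was lost when any library other than HT replicate 2 was left out (0.0683 to 0.0976) and in all 3 limma fits (0.0615 to 0.0873). The summed photosystem II antenna was 2.02, 1.93 and 1.96 times this whole photosystem II list in LT and 2.59, 2.09 and 2.49 times in HT.

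Among genes that target antenna proteins to the membrane, 1 of 9 tested models rose and 0 fell, a share close to the 9.27% of all gene models called higher, so the count says nothing particular of the list. At an unadjusted p under 0.05 or with DESeq2, 0 were lower. The model that rose was cpSRP43 (Cha02g018860), the plastid chaperone dedicated to antenna proteins, which had 203, 161 and 175 CPM in LT and 129, 98.8 and 148 CPM in HT (log2 change 0.52 ± 0.16, adjusted p = 0.0262). That call was lost without LT replicate 1 (0.111), LT replicate 2 (0.0534), LT replicate 3 (0.0812) or HT replicate 1 (0.0539), and in all 3 limma fits (0.0588 to 0.0986). None of the cpSRP54, FtsY and ALBINO3 models passed the test. Among 11 tested models for regulators of the antenna and of cyclic electron flow, 3 fell and 2 rose, where 9.65% of all gene models were called lower and 9.27% higher. Without LT replicate 3, 1 fell, and without LT replicate 2, LT replicate 3, HT replicate 1 or HT replicate 3, 1 rose. PGR5-like protein 1B (Cha14g007270), of cyclic electron flow, fell to 23.5, 26.5 and 30.9 CPM in LT, against 73.3, 68.7 and 74.2 CPM in HT (log2 change -1.42 ± 0.14, adjusted p = 3.01e-06). The kinases that phosphorylate the photosystem II complexes went opposite ways. STN8 (Cha04g022690), which acts mainly on the core, rose to 24.3, 30.9 and 24.9 CPM in LT, against 12.5, 12.9 and 11.5 CPM in HT (log2 change 1.12 ± 0.16, adjusted p = 0.000173). STN7 (Cha10g012280), which acts on LHCII and was named after its values were seen, fell to 37.02, 41.0 and 36.2 CPM in LT, against 49.6, 60.6 and 50.4 CPM in HT (adjusted p = 0.0173, but 0.0513 without LT replicate 1 and 0.0966 without LT replicate 3). Limma without a filter also lost the STN7 call (0.0598). The other 2 calls, also named after their values were seen, were PGR5 (Cha05g004120), lower with a log2 change of -0.64, and violaxanthin de-epoxidase (ChaUn6822.4), the enzyme that makes zeaxanthin in excess light, higher with a log2 change of 0.53. Both depended on single libraries, with an adjusted p of up to 0.119 for PGR5 without LT replicate 2 and of up to 0.108 for violaxanthin de-epoxidase without HT replicate 3. Limma without a filter also lost both calls (0.0783 for PGR5 and 0.0657 for violaxanthin de-epoxidase). Scaling by library totals lost that of violaxanthin de-epoxidase (0.0561).

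In the turnover of chlorophyll b and the antenna, 1 of 12 tested models rose and 0 fell, where 9.27% of all gene models were called higher and 9.65% lower, so this list too had no more calls than gene models at large. At an unadjusted p under 0.05, 2 were lower, DESeq2 called 0 lower, and upper quartile scaling or a minimum count of 30 gave 1 called lower. The model that rose in the main fit was a pheophytinase (Cha08g005810), which removes the phytol tail during chlorophyll breakdown, at 59.0, 60.5 and 52.8 CPM in LT and 41.7, 42.9 and 39.3 CPM in HT (log2 change 0.48 ± 0.13, adjusted p = 0.0154, but 0.0831 without LT replicate 2 and 0.0747 without HT replicate 3). Chlorophyllide a oxygenase, which makes chlorophyll b, and the NYC1 and NOL reductases, which remove it, did not pass the test. Of 15 tested models for transcription factors chosen by name for a link to light, the clock or greening, 3 fell and 1 rose. Without HT replicate 2, 2 rose. Beside these counts stand the 9.65% of all gene models called lower and the 9.27% called higher. HY5 (Cha12g007340), an activator of light-induced genes, fell to 32.3, 28.4 and 25.3 CPM in LT, against 52.7, 45.0 and 50.8 CPM in HT (log2 change -0.79 ± 0.14, adjusted p = 0.001). REVEILLE 1 (Cha03g013990), a clock-related MYB-like factor, rose to 22.5, 33.8 and 35.97 CPM in LT, against 7.27, 9.84 and 7.03 CPM in HT (log2 change 1.93 ± 0.20, adjusted p = 6.95e-06). A PIF7 model (Cha03g011080, log2 change -1.15) and a GATA22 locus (-0.73), named after their values were seen, were the others that fell. The GLK1 and GLK2 models, which drive antenna gene expression in Arabidopsis, did not pass the test.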

How the data were processed

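RNA levels in 3 low-temperature (LT) and 3 high-temperature (HT) libraries were used as deposited, grouped by the sample titles. The authors deposited raw read counts per gene model and FPKM for the same models. The reads were, per the submitters' processing notes, handled with HISAT2 2.0.5 and featureCounts 1.5.0-p3 among other tools. The build, the strand setting and the treatment of reads matching several copies were not given in the sources used here. The deposited FPKM equal the count over gene length and over 1 divisor per library, which is 1.13 times the library total in HT replicate 2 and 0.977 to 1.01 times in the others. Lengths of all 33556 annotated models are multiples of 3, so they are coding lengths, and another 6562 loci lie outside the annotation. No member matched the reference gene table by identifier, so no sequence is shown.

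Counts were fitted with temperature group alone in edgeR 4.0.16 (R 4.3.3), after TMM scaling and a filter by filterByExpr at 10 counts, and tested by its robust quasi-likelihood F test, with Benjamini-Hochberg adjustment over all 26767 tested models and calls at an adjusted p under 0.05. Standard errors are the log2 change over the root of its F value. Sums and ratios carry no test. The steps were tested on simulated counts. Alternatives were other scalings and filters, a block for replicate number, DESeq2 1.42.0, limma 3.58.1 on log2 FPKM (a pseudocount of 1 or 0.1, a filter at a mean FPKM of 0.5 or none), a stricter threshold of 0.01 and each library left out. Refits of a gene mean all of these but the threshold. Written out in full were, per antenna, the 5 members highest in FPKM and the 4 with the smallest p, all members called higher, ELIP1, PsbS and the 2 leading called genes of each related list; other members are also given with their values. Members and lists were chosen with earlier results of these data known.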

Additional observations from a re-analysis of the deposited data

How the results depend on the processing

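The ratio of summed levels, LT over HT, kept its direction under all scalings, with deposited FPKM and with each library left out, from 0.599 to 0.704 for the photosystem I antenna and from 0.572 to 0.689 for the photosystem II antenna. Leaving out 1 library gave 2 to 6 photosystem I antenna genes called lower, 4 to 13 photosystem II antenna genes called lower, 1 to 3 members called higher and 2606 to 5621 gene models called in all, against 4, 9, 2 and 5062 with all libraries. The highest number in each case came without HT replicate 2. Fewer libraries leave fewer degrees of freedom, and the cause of the differences among libraries was not tested. Limma on log2(FPKM + 1) without a filter called 5 photosystem II antenna genes lower, 1 member higher and 2867 gene models, and limma with a filter called 1 member higher with either pseudocount. At an adjusted p under 0.01, 5 photosystem II antenna genes were called lower, 1 member higher and 2423 gene models. Matching members by protein name alone, which leaves out ELIP1 and PsbS, left 1 called higher. With the replicate block, 4 photosystem I and 8 photosystem II antenna genes were called lower, 2 members higher and 4805 gene models; same-numbered libraries correlated by only -0.0113, 0.0399 and -0.00939 in their deviations, and not every library correlated best with its own number. Among 400 refitted values of single members, 1 reversed: the weaker CAB-13 model Cha08g015420 had a log2 change of -0.087 without HT replicate 2 and 0.13 without HT replicate 3. Of the others 45 lost and 13 gained a call, and 341 kept their side of the threshold. At an adjusted p under 0.01, 6 called members were no longer called. Depth limits little at these levels, apart from Cha06g020630 and the untested Cha08g015620.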
